A study of Mus musculus with 18 samples.

Results

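The genes of the DREAM and MuvB complexes, the cell cycle repressor and activator assemblies, were followed across regulatory T cells (Treg). The 10 genes were chosen by name (Lin9, Lin37, Lin52, Lin54, E2f4, Tfdp1, Rbl1, Rbl2, Mybl2 and Foxm1), and all 10 were found among the 35275 gene identifiers of the deposited table. LIN9, LIN37, LIN52 and LIN54 belong to the MuvB core. In resting cells the core joins the pocket proteins p107 (Rbl1) or p130 (Rbl2), an E2F repressor such as E2F4 and its dimer partner DP1 (Tfdp1) to form DREAM, which holds cell cycle genes silent. The kinase DYRK1A promotes DREAM assembly by phosphorylating LIN52. When cells enter the cycle, MuvB leaves DREAM, binds B-MYB (Mybl2) and then recruits FOXM1, and the same core activates genes of the G2 and M phases.

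RNA was sequenced from 18 libraries of CD4-enriched, YFP-sorted Foxp3+ Treg of male mice aged 6 to 8 weeks, 3 per group. All 6 groups carried Foxp3YFPcre, which expresses Cre recombinase and YFP in Foxp3+ cells. It was the only allele named for the wild-type group, and the other groups also carried floxed Dyrk1, HDAC1, HDAC2, Mef2c or Mef2d. The labels do not say which Dyrk1 gene was floxed, and the growth protocol also speaks of an Rcor1 knockout.

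Between 15.92 and 24.09 M reads lay behind each library. Values were treated as FPKM, reads corrected for the length of the gene and the size of the library. Foxp3, which defines Treg, stood at 82.5 to 117.7 FPKM. Hdac1 was lower in the libraries labelled HDAC1 (32.0 ± 4.34 against 119 ± 3.05 FPKM in wild type, SD, n = 3). The other targeted genes were not lower under their labels. Dyrk1a (33.1 ± 2.58 against 27.7 ± 1.46), Dyrk1b (11.8 ± 0.789 against 7.001 ± 0.466) and Mef2d (53.4 ± 0.561 against 41.7 ± 4.59) were higher, while Hdac2 (27.9 ± 0.937 against 28.3 ± 0.519) and Mef2c (1.27 ± 0.594 against 0.476 ± 0.151) did not pass the test. A count over a whole gene need not show the loss of a floxed exon, so groups are named here by their label. Among other cell types, the 8 B cell markers summed to 374.9 FPKM in Dyrk1 replicate 1, against 29.2 to 47.6 in wild type. The 3 libraries with the highest mean of those markers were Dyrk1 replicate 1, Mef2d replicate 1 and Mef2c replicate 1. The 6 plasma cell markers summed to 3392 to 10560 FPKM in HDAC2, to 1979 to 6046 in HDAC1 and to 488.8 to 1578 in wild type. All 6 passed as higher in HDAC2, and Igha (limma adjusted p 0.0217) and Tnfrsf17 (0.0346) did in HDAC1. Of the erythroid markers, which summed to 25.6 to 388.6 FPKM in wild type, Hba-a1 was lower in Dyrk1 (7.80 ± 7.83 against 81.8 ± 76.4, adjusted p 0.038) and Hbb-bt in Mef2c (0.0126) and Mef2d (0.0233). Hba-a1, Hba-a2 and Hbb-bs were also lower in Dyrk1 than in HDAC2. The 7 CD8 T and NK cell markers summed to 179 FPKM in Dyrk1 replicate 1, against 59.6 to 92.6 in wild type. The 6 myeloid markers summed to 138.7 there, against 11.3 to 50.2, and none of the 5 tested passed in any comparison. Klrb1c, Prf1 and Ncr1 passed as higher in HDAC2, where the other 4 CD8 T and NK markers did not pass. Klrb1c was lower in Mef2c and Mef2d, and Klrb1c and Prf1 were lower in Dyrk1 than in HDAC2. No B or plasma cell marker was at 0 in any library. All comparisons with wild type share the 3 wild-type libraries.

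Promoter windows show which members carry the sequence elements these complexes read. RefSeq windows of GRCm38.p6 ran from 250 bases before to 50 bases after a start site. Lin9, E2f4 and Foxm1 had no such window and were not searched. Windows were found for the other 7 of the 10 genes. Those of Lin52, Rbl1, Rbl2 and Mybl2 are printed because their levels carry most of the comparisons below or, for LIN52, because it is the subunit DYRK1A modifies. Capitals mark matches on either strand to the E2F forms TTTNNCGC and GGCGGGA, to the CHR element TTTGAA that LIN54 recognises, to the CHR variant TTCGAA, or to the CCAAT box CCAAT. Overlapping matches run together.
Lin52, chr12:84451258-84451557, plus strand: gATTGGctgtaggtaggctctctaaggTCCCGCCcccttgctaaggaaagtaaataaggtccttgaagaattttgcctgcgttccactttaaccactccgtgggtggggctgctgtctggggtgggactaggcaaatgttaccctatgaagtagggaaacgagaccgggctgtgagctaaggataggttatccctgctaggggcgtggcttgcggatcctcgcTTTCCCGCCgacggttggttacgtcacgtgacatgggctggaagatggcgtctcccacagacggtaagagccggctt
Rbl1, chr2:157204485-157204784, minus strand: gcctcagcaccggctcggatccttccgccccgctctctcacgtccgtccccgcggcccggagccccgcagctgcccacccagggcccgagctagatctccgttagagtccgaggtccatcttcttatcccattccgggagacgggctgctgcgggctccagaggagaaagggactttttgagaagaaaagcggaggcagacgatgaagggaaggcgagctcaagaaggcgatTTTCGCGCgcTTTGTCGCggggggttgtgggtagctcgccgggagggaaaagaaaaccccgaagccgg
Rbl2, chr8:91069807-91070106, plus strand: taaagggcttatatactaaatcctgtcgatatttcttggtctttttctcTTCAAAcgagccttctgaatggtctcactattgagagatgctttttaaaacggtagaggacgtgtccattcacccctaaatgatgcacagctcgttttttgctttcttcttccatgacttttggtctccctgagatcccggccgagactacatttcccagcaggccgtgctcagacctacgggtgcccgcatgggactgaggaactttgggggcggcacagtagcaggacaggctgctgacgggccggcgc
Mybl2, chr2:163054385-163054684, plus strand: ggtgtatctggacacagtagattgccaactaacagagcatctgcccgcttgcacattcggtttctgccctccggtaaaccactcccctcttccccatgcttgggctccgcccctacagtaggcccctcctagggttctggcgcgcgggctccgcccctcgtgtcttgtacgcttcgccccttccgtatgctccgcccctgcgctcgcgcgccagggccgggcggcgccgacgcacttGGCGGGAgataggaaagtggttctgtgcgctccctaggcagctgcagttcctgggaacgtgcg

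The Rbl1 window held 2 matches to TTTNNCGC, TTTCGCGC starting at -18 and TTTGTCGC at -8 from the start site, a form found in 5.2% of all 32851 windows. Lin52 held 1 at -27 (TTTCCCGC), which overlaps a TCCCGCC match at -25, and Tfdp1 also held the long form. The short form GGCGGGA occurred in 11.3% of windows and lay at -13 in Mybl2. It was also found in Lin52, Lin54, Lin37 and Tfdp1. Rbl2 held neither E2F form and a single CHR match at -201, read on the opposite strand as TTCAAA. CHR matches occurred in 17.9% of all windows and were also found in Lin54 and Lin37. The search for the MEF2 element, in 3.2% of all windows, gave no match in a member window. Among the genes these complexes control, CHR was present in 72.0% of 25 windows of G2/M targets and in 11.5% of 26 windows of G1/S targets, and TTTNNCGC in 8.0% and 42.3%. These matches describe letters in the windows and no binding was measured.

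Levels were compared with limma on log2(FPKM + 1) over 12223 genes, with Benjamini-Hochberg adjustment over all of them and a threshold of 0.05. Fold changes on this scale understate those of weakly expressed genes. All 10 members passed the filter of 1 FPKM in 3 libraries. In the F test over the 6 groups 7 of 10 passed, against 38.6% of all genes. The 3 that did not were Lin37, Lin52 and E2f4. Across the 18 libraries Foxm1 ranged 3.77-fold, Mybl2 3.50-fold and Rbl2 2.19-fold, while E2f4 ranged 1.26-fold.

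**Figure D1:**
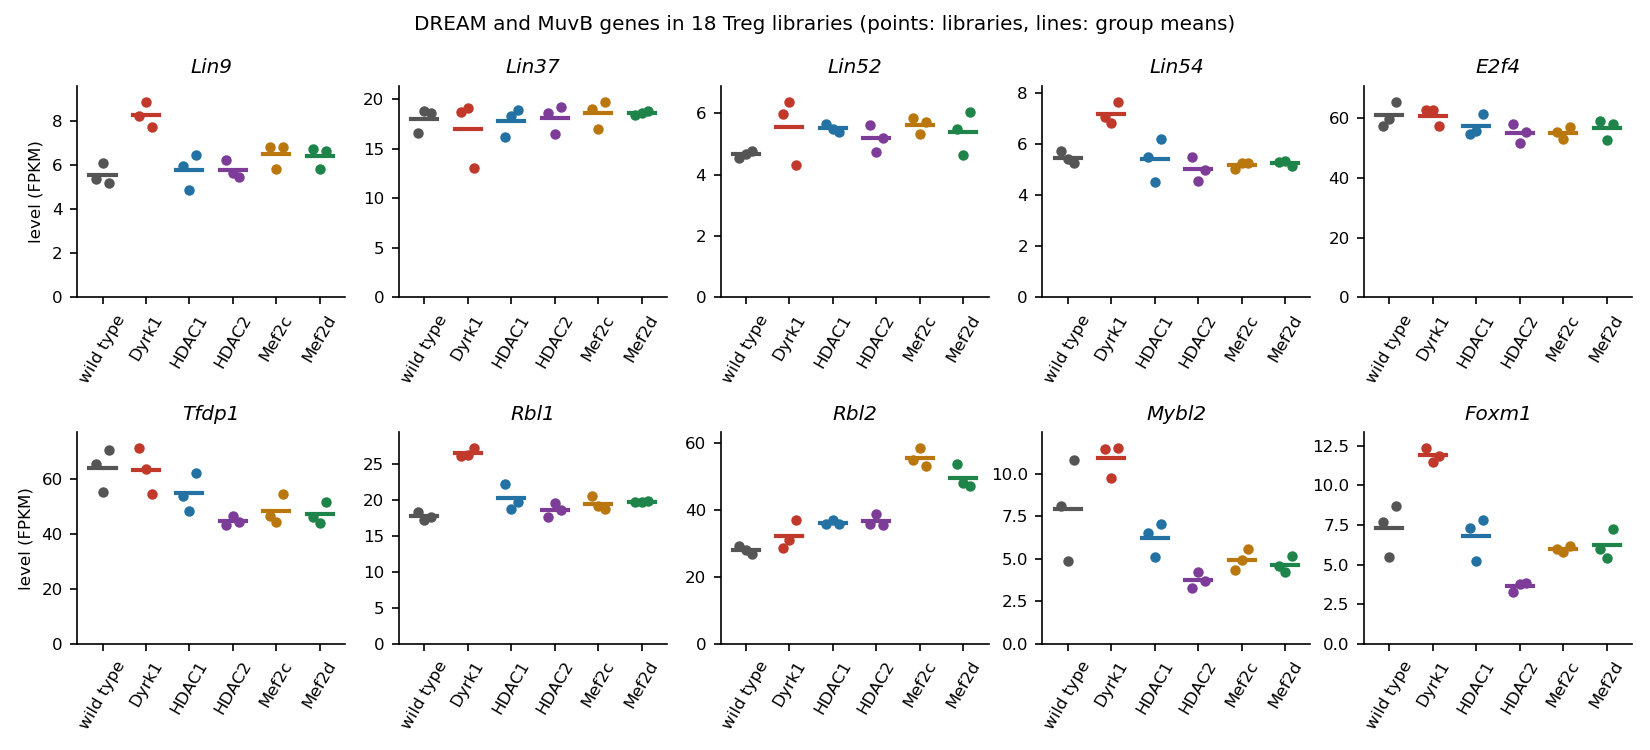
Level of each of the 10 genes in FPKM (vertical axes, from 0) in the 18 libraries by group (horizontal axes), where points are libraries and lines are group means. Foxm1, Rbl1, Lin9 and Lin54 were highest in all 3 libraries labelled Dyrk1, and Rbl2 was highest in those labelled Mef2c and Mef2d.

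Against wild type, Dyrk1 had 4 of the 10 genes higher and 0 lower, where 17.3% of all genes passed (11.1% higher, 6.19% lower). Those 4 were Lin9, Lin54, Rbl1 and Foxm1, and all 3 Dyrk1 libraries lay above all 3 of wild type for each of them, an arrangement shown by 17.8% of all genes. HDAC1 had 1 higher (Rbl2), and 0 lower, where 12.5% of all genes passed (10.2% higher, 2.32% lower). HDAC2 had Rbl2 higher and Tfdp1, Mybl2 and Foxm1 lower, where 25.6% of all genes passed (16.1% higher, 9.41% lower). Mef2c had Rbl2 higher and Tfdp1 lower (19.0% of all genes, 12.9% higher and 6.06% lower), and Mef2d had Rbl2 higher and Tfdp1 and Mybl2 lower (21.9% of all genes, 13.9% higher and 7.95% lower). The median log2 change over the 10 was 0.27 in Dyrk1, beside 0.02 over all genes. In HDAC2 it was -0.05 beside 0.05.

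**Figure D2:**
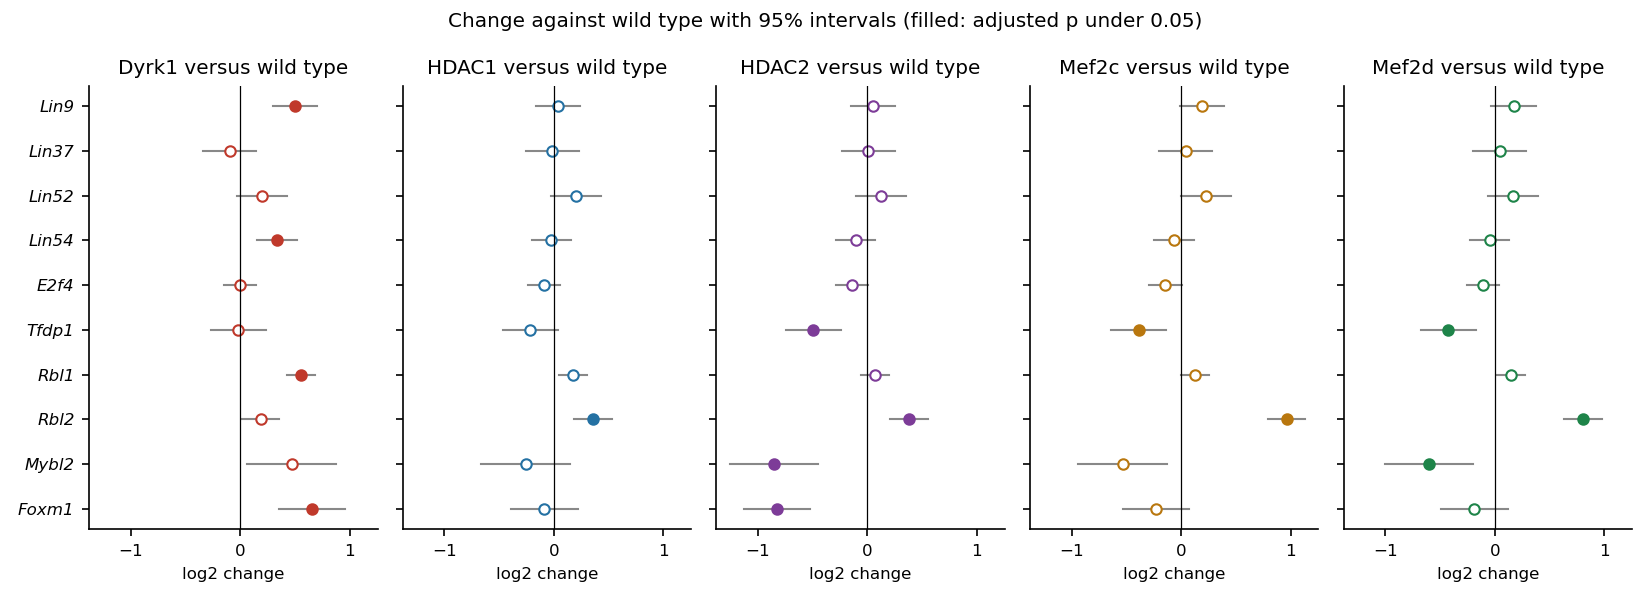
Log2 change against wild type on the log2(FPKM + 1) scale (horizontal axes) with 95% intervals for the 10 genes (vertical axis) in the 5 comparisons. Filled points passed an adjusted p of 0.05, which was 4 genes in Dyrk1, 1 in HDAC1, 4 in HDAC2, 2 in Mef2c and 3 in Mef2d.

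Lin9 (chromosome 1, 180641150 to 180690694) encodes the MuvB scaffold subunit that contacts B-MYB. It stood at 5.40, 6.12 and 5.21 FPKM in wild-type replicates 1, 2 and 3 and at 8.26, 8.89 and 7.74 in Dyrk1. Every Dyrk1 library exceeded every library of the other 5 groups, which lay between 4.90 and 6.85 FPKM. How many of all genes set a group or a pair of groups apart from all others was not counted, here or for the genes below. Lin9 rose in Dyrk1 by 0.50 on the log2 scale (SE 0.09, limma adjusted p 0.00399). In the remaining comparisons with wild type its log2 differences were 0.04 to 0.19 and none passed. From the lowest mean to the highest the groups ran wild type, HDAC1, HDAC2, Mef2d, Mef2c and Dyrk1, and only the last step separated without overlap.

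Lin54 (chromosome 5, 100441918 to 100500639) encodes the subunit that binds CHR elements. It stood at 5.72, 5.44 and 5.29 FPKM in wild type and at 7.06, 6.85 and 7.68 in Dyrk1. The Dyrk1 libraries again lay above all others, of which the highest was 6.20 in HDAC1. The rise in Dyrk1 was 0.34 on the log2 scale (SE 0.08, limma adjusted p 0.0156). This was the least stable of the Dyrk1 calls: its adjusted p was 0.0547 without wild-type replicate 3, 0.0601 without Dyrk1 replicate 3 and 0.0646 after length and GC trends were removed. The other 5 groups overlapped along the whole order from HDAC2 (5.02 ± 0.462 FPKM) to wild type (5.48 ± 0.223).

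Lin52 (chromosome 12, 84451422 to 84546145), the DYRK1A substrate, rests on 158 to 298 reads per library, the fewest of the 10. It stood at 4.55, 4.67 and 4.78 FPKM in wild type and at 5.99, 6.38 and 4.33 in Dyrk1. Dyrk1 replicates 1 and 2 were above wild type and replicate 3 was the lowest of the 18 libraries. The difference did not pass (log2 0.20, 95% interval -0.03 to 0.43, limma adjusted p 0.213). Without Dyrk1 replicate 3 it did (log2 0.34, adjusted p 0.0273), so this library decided the call. Means in HDAC1, HDAC2, Mef2c and Mef2d were 5.19 to 5.64 FPKM, wild type had the lowest mean, and each group overlapped the next in order. Every HDAC1 and Mef2c library still lay above every wild-type library, as for 24.8% and 23.5% of all genes. No comparison passed.

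Lin37 (chromosome 7, 30555441 to 30559838), the subunit needed for repression by DREAM, stood at 16.6, 18.8 and 18.6 FPKM in wild type and at 18.7, 19.1 and 13.1 in Dyrk1. As for Lin52, Dyrk1 replicate 3 held the lowest value of the 18, and that library also had the lowest total (430017 FPKM). The log2 difference was -0.10 (95% interval -0.34 to 0.15). Group means lay between 17.0 and 18.6 FPKM, and neighbouring groups overlapped at every step.

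E2f4 (chromosome 8, 105297663 to 105305370) encodes the E2F that serves DREAM as a repressor. It was 57.5, 59.8 and 65.6 FPKM in wild type and 62.7, 62.6 and 57.3 in Dyrk1, with a log2 difference of -0.00 and a 95% interval of -0.15 to 0.15. The lowest means were in HDAC2 (55.1 ± 3.10) and Mef2c (55.1 ± 1.99). Neither passed (limma adjusted p 0.134 and 0.161). With median-of-ratios (RLE) scaling both did, at log2 changes of -0.20 (adjusted p 0.0292) and -0.20 (adjusted p 0.0382).

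Tfdp1 (chromosome 8, 13338751 to 13378448) encodes DP1, the partner through which E2F proteins bind DNA. It stood at 65.4, 55.2 and 70.6 FPKM in wild type and at 43.1, 46.6 and 44.4 in HDAC2. It was 46.6, 44.2 and 54.5 in Mef2c and 46.2, 43.8 and 51.4 in Mef2d. In these 3 groups every library was below every wild-type library, as for 18% of all genes in HDAC2, 12.8% in Mef2c and 16.3% in Mef2d. Tfdp1 fell by 0.50 on the log2 scale in HDAC2 (SE 0.12, limma adjusted p 0.00844), by 0.39 in Mef2c (adjusted p 0.0328) and by 0.42 in Mef2d (adjusted p 0.0207). Without wild-type replicate 3, the highest of that group, these values were 0.0511, 0.152 and 0.106. Without the 3 libraries richest in B cell markers, the Mef2c and Mef2d calls also ended (0.107 and 0.0663), as they did without wild-type replicate 1 (0.0895 and 0.0601) and without replicate 1 (0.109 and 0.0667) or 2 (0.116 and 0.0762) of the deletion group. The Mef2c call ended too with no filter on low values (0.0581) or only the 2 groups fitted (0.0695). Dyrk1, at 71.1, 63.4 and 54.6 FPKM, spread as widely as wild type (SD 8.27 and 7.82). The difference between them did not pass (95% interval -0.27 to 0.23, with the error taken over all 6 groups).

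The paired pocket proteins moved in different groups. Rbl1 (chromosome 2, 157145893 to 157204534) encodes p107, whose gene is itself an E2F target. It stood at 18.3, 17.2 and 17.6 FPKM in wild type and at 26.1, 26.2 and 27.1 in Dyrk1. The 15 libraries of the other groups did not exceed 22.1. Rbl1 rose in Dyrk1 by 0.56 on the log2 scale (SE 0.06, limma adjusted p 7.98e-05), and the call held in all 15 alternative settings (highest adjusted p 0.0382). Means of wild type, HDAC2, Mef2c, Mef2d and HDAC1 ran in this order from 17.7 to 20.2 FPKM, and each group overlapped the next. Every Mef2c, Mef2d and HDAC1 library still lay above every wild-type library, as for 23.5%, 25.9% and 24.8% of all genes. None of these groups passed against wild type, although HDAC1 did without its replicate 2 (log2 0.22, adjusted p 0.0496).

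Rbl2 (chromosome 8, 91070057 to 91123844) encodes p130, the pocket protein most associated with quiescent cells. It stood at 29.2, 28.0 and 26.8 FPKM in wild type. It was 55.0, 58.5 and 53.2 in Mef2c and 53.9, 48.0 and 47.3 in Mef2d, so the lowest of these 6 exceeded the highest of the other 12 libraries, 38.9. HDAC1 (35.8, 36.9 and 35.7) and HDAC2 (35.8, 38.9 and 35.5) lay between, above every wild-type library. Such a separation was shown by 24.8% of all genes in HDAC1, 28.6% in HDAC2, 23.5% in Mef2c and 25.9% in Mef2d. Rbl2 rose by 0.96 in Mef2c (SE 0.08, limma adjusted p 1.23e-06), by 0.81 in Mef2d (adjusted p 1.29e-05), by 0.38 in HDAC2 (adjusted p 0.00517) and by 0.36 in HDAC1 (adjusted p 0.0125). The first 3 calls held in all 15 alternative settings. The HDAC1 call ended with RLE scaling (0.0505), with length and GC trends removed (0.0532) and without wild-type replicate 3 (0.0637). In Dyrk1 (28.6, 31.0 and 36.9) the difference did not pass (log2 0.19, adjusted p 0.122), but did without replicate 1 (log2 0.27, adjusted p 0.0306) and without the B cell rich libraries (adjusted p 0.0326). Rbl2 overlaps the antisense gene Aktip over 12061 bases and the strand setting of the counting was not given. Aktip averaged 7.31 to 8.21 FPKM by group and passed in none of the 6 comparisons.

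The ratio of Rbl2 to Rbl1 was lowest in the Dyrk1 libraries, at 1.10 to 1.36, and 1.52 to 1.63 in wild type. It reached 1.62 to 1.97 with HDAC1 and 1.91 to 2.03 with HDAC2. The highest ratios were those of Mef2d (2.39 to 2.74) and Mef2c (2.68 to 3.06). The size of this ratio assumes values scaled by gene length, a unit that no source names. Fitted lengths were 4925 bases for Rbl2 and 4862 for Rbl1, against annotated lengths of 7558 and 5993. The order of the groups does not depend on these lengths. Dyrk1 lay below wild type in every library and Mef2c and Mef2d lay above the remaining groups. The ratio rests on the values already tested and is given as a description.

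**Figure D3:**
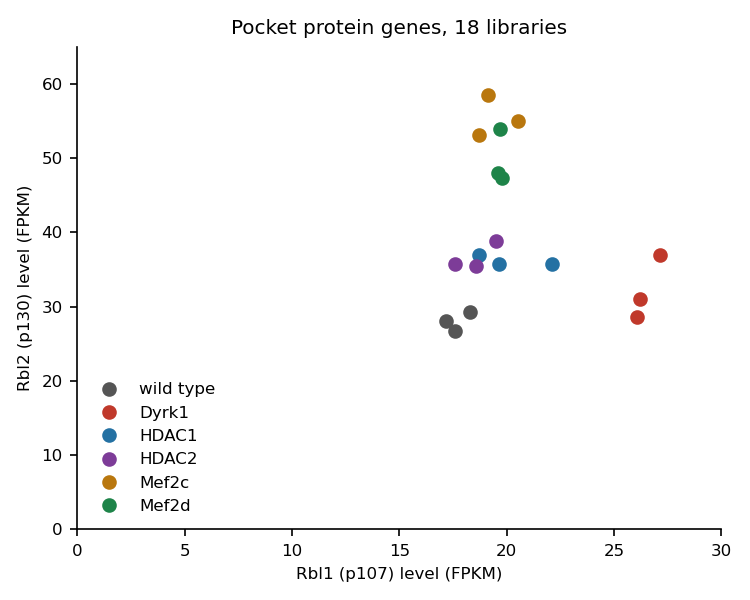
Rbl2 (vertical axis) against Rbl1 (horizontal axis), both in FPKM, with a point per library coloured by group. Dyrk1 libraries stand apart to the right at 26.1 to 27.1 FPKM of Rbl1, and Mef2c and Mef2d libraries stand apart at the top at 47.3 to 58.5 FPKM of Rbl2.

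Mybl2 (chromosome 2, 163054687 to 163084688) encodes B-MYB, the first activator that replaces the repressors on MuvB. It stood at 8.09, 4.86 and 10.8 FPKM in wild type, a wide spread in which replicate 2 was low and replicate 3 high. It was 11.5, 9.76 and 11.5 in Dyrk1 and 3.29, 4.25 and 3.73 in HDAC2. Every HDAC2 library lay below every wild-type library, while Dyrk1 overlapped wild type replicate 3. Mybl2 fell by 0.85 on the log2 scale in HDAC2 (SE 0.19, limma adjusted p 0.00631), which held in all 15 alternative settings. In bulk RNA, fewer cells with a transcript and less of it per cell cannot be told apart.

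In Dyrk1 the Mybl2 difference did not pass (log2 0.47, 95% interval 0.07 to 0.88, limma adjusted p 0.10), and it passed without wild-type replicate 3 (log2 0.70, adjusted p 0.0214). In Mef2d, Mybl2 was 4.60, 4.22 and 5.17 FPKM and fell by 0.60 (adjusted p 0.0358), although its libraries overlapped wild type. That call ended without wild-type replicate 1 (0.0954) or 3 (0.191), Mef2d replicate 1 (0.0933) or 2 (0.109), or the 3 libraries richest in B cell markers (0.11), and also with no filter on low values (0.0698) or only the 2 groups fitted (0.12). In Mef2c (4.33, 4.93 and 5.56) the log2 difference was -0.53 and did not pass (adjusted p 0.0619), but did with RLE scaling (0.0496). Without wild-type replicate 2 it was -0.81 (adjusted p 0.00223), and HDAC1 (6.54, 5.11 and 7.02) then also passed at -0.53 (adjusted p 0.0289).

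Foxm1 (chromosome 6, 128362967 to 128376146) encodes the forkhead factor that joins B-MYB and MuvB later in the cycle. It stood at 7.70, 5.51 and 8.67 FPKM in wild type, at 12.3, 11.5 and 11.9 in Dyrk1 and at 3.27, 3.78 and 3.81 in HDAC2. Dyrk1 was separate at the top of the order and HDAC2 was separate at the bottom. Mef2c, Mef2d, HDAC1 and wild type, from 5.98 to 7.29 FPKM, overlapped between them. In Mef2c Foxm1 passed as lower without wild-type replicate 2 (log2 -0.39, adjusted p 0.0494). Foxm1 rose by 0.66 in Dyrk1 (SE 0.14, limma adjusted p 0.00808) and fell by 0.83 in HDAC2 (SE 0.14, adjusted p 0.00283). The last bases of Foxm1 overlap Tex52 and Gm44596 on the same strand, over 691 and 644 bases.

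Set against each other directly, Dyrk1 exceeded HDAC2 for 6 of the 10 genes and fell below it for 0, where 17.4% of all genes passed (7.89% higher, 9.47% lower). Foxm1 differed by 1.48 (SE 0.14, limma adjusted p 1.81e-05) and Mybl2 by 1.33 (SE 0.19, adjusted p 0.000243), both held in all 15 settings. Rbl1 (0.49), Tfdp1 (0.48), Lin9 (0.45) and Lin54 (0.45) followed. The Tfdp1 call ended without Dyrk1 replicate 1 (adjusted p 0.0517) and without the 3 libraries richest in B cell markers (0.0777). Lin52, Lin37, E2f4 and Rbl2 did not pass, but Rbl2 did, as lower in Dyrk1, without Dyrk1 replicate 3 (log2 -0.29, adjusted p 0.00931).

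When only the 6 libraries of a comparison were fitted, Dyrk1 against wild type kept 1 of its 4 member calls, Rbl1, and 62 calls over all genes in place of 2116. Lin9, Foxm1 and Lin54 then had limma adjusted p-values of 0.0787, 0.097 and 0.111 at the same log2 changes. The B cell rich libraries were Dyrk1 replicate 1, Mef2d replicate 1 and Mef2c replicate 1. Without them Rbl1 (0.57), Foxm1 (0.63), Lin9 (0.50) and Lin54 (0.35) still passed in Dyrk1. The part played by plasma cell RNA in the HDAC1 and HDAC2 values, and by erythroid RNA in those of Dyrk1, Mef2c and Mef2d, was not tested. Nor was the part played by CD8 T, NK or myeloid cell RNA.

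Over the 18 libraries the highest level was 3.77 times the lowest for Foxm1 and 3.50 times for Mybl2. Among the other 8 genes this ratio ran from 1.26 for E2f4 to 2.19 for Rbl2. On the log2(FPKM + 1) scale the largest change from wild type was nevertheless that of Rbl2, by 0.96 in Mef2c. That scale understates changes of weakly expressed genes such as Mybl2 and Foxm1, and the ranking depends on it. Over the alternative settings, Rbl2 in Mef2c reached at most 0.99 and Mybl2 in HDAC2 reached -1.13. The ranges over the libraries are a description. The mean log2(FPKM + 1) of Mybl2 and Foxm1 was 3.15, 2.63 and 3.42 in wild type, 3.69, 3.53 and 3.66 in Dyrk1 and 2.10, 2.33 and 2.25 in HDAC2. All 3 Dyrk1 libraries lay above wild type and all 3 HDAC2 libraries below it. This mean is given without a test, since both genes were already tested singly.

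**Figure D4:**
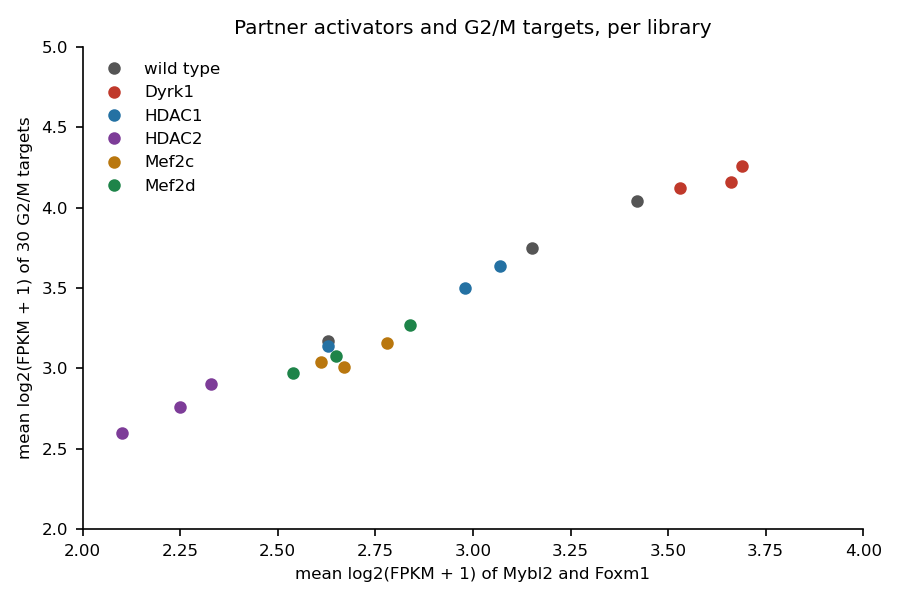
Mean log2(FPKM + 1) of 30 G2/M targets (vertical axis) against the mean of Mybl2 and Foxm1 (horizontal axis), with a point per library coloured by group. The target means run from 2.60 to 4.26, with the 3 HDAC2 libraries lowest and the 3 Dyrk1 libraries highest on both axes.

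G2/M targets of B-MYB, MuvB and FOXM1, such as cyclins and spindle genes, were read from a list of 30, none of them a member. In Dyrk1 12 of 30 rose and 0 fell, with a median log2 change of 0.51. Of all genes 11.1% rose there, with a median of 0.02. Mki67, a proliferation marker, went from 19.5 ± 5.45 to 45.5 ± 7.66 FPKM (log2 1.20, limma adjusted p 0.00121). Cenpf (log2 0.89), Cenpe (0.79) and Ncapg (0.79) followed. Without wild-type replicate 2 or Dyrk1 replicate 3 the count was 4, without wild-type replicate 3 it was 19, and without the B cell rich libraries it was 4. It was 0 when only the 6 libraries of the comparison were fitted, as was that of the G1/S targets described below. In HDAC2 28 of 30 fell and 0 rose, with a median of -0.96, where 9.41% of all genes fell. Ccna2, cyclin A2, went from 20.6 ± 6.85 to 8.40 ± 1.81 FPKM (log2 -1.17, adjusted p 0.00251), and that count stayed between 19 and 30 when a library was left out.

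In Mef2c 17 of 30 G2/M targets fell (median -0.58), where 6.06% of all genes fell. In Mef2d 15 of 30 fell (median -0.59), where 7.95% of all genes fell, with 0 targets higher in either group. Without wild-type replicate 3 both counts were 0, and without wild-type replicate 2 they were 28 and 26. They were 5 and 1 without wild-type replicate 1, and 1 and 0 without the B cell rich libraries. Without replicates 1 or 2 of the deletion group they were 2 and 4 in Mef2c and 1 and 1 in Mef2d. In HDAC1 0 of 30 passed with limma on either FPKM or voom-weighted recovered reads, and 2 were lower at an unadjusted p under 0.05. Without wild-type replicate 2, 14 fell in HDAC1. All 30 were higher in Dyrk1 than in HDAC2 (median 1.44), and this count did not change on leaving out any library of these groups.

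Of 28 G1/S targets, replication genes controlled by E2F and DREAM, 27 were tested. In Dyrk1 8 rose, among them Orc1 (log2 0.51) and Prim1 (0.45), with 0 lower. That count ranged from 2 without wild-type replicate 2 to 18 without wild-type replicate 3, and was 3 or 4 without wild-type replicate 1 or any Dyrk1 library. In HDAC2 all 27 fell, by a median of 0.62, with Mcm7, a helicase subunit, at 34.9 ± 2.06 against 57.0 ± 9.94 FPKM. This count was 15 without wild-type replicate 3. In Mef2c 10 fell and in Mef2d 13, with Mcm2 at a log2 change of -0.53 and -0.59. Without wild-type replicate 3 these counts were 1 and 2, and without wild-type replicate 2 they were 23 and 25. Without replicate 1, 2 or 3 of its own group Mef2c had 1, 2 and 5, and without replicate 1 or 2 Mef2d had 3 and 6. Without wild-type replicate 1 they were 3 and 6, and without the B cell rich libraries 1 and 2 (3 in Dyrk1). In HDAC1 0 passed in either limma fit, 4 were lower at an unadjusted p under 0.05, and 10 fell without wild-type replicate 2. Over all genes 11.1% rose in Dyrk1, while 9.41% fell in HDAC2, 6.06% in Mef2c, 7.95% in Mef2d and 2.32% in HDAC1.

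**Figure D5:**
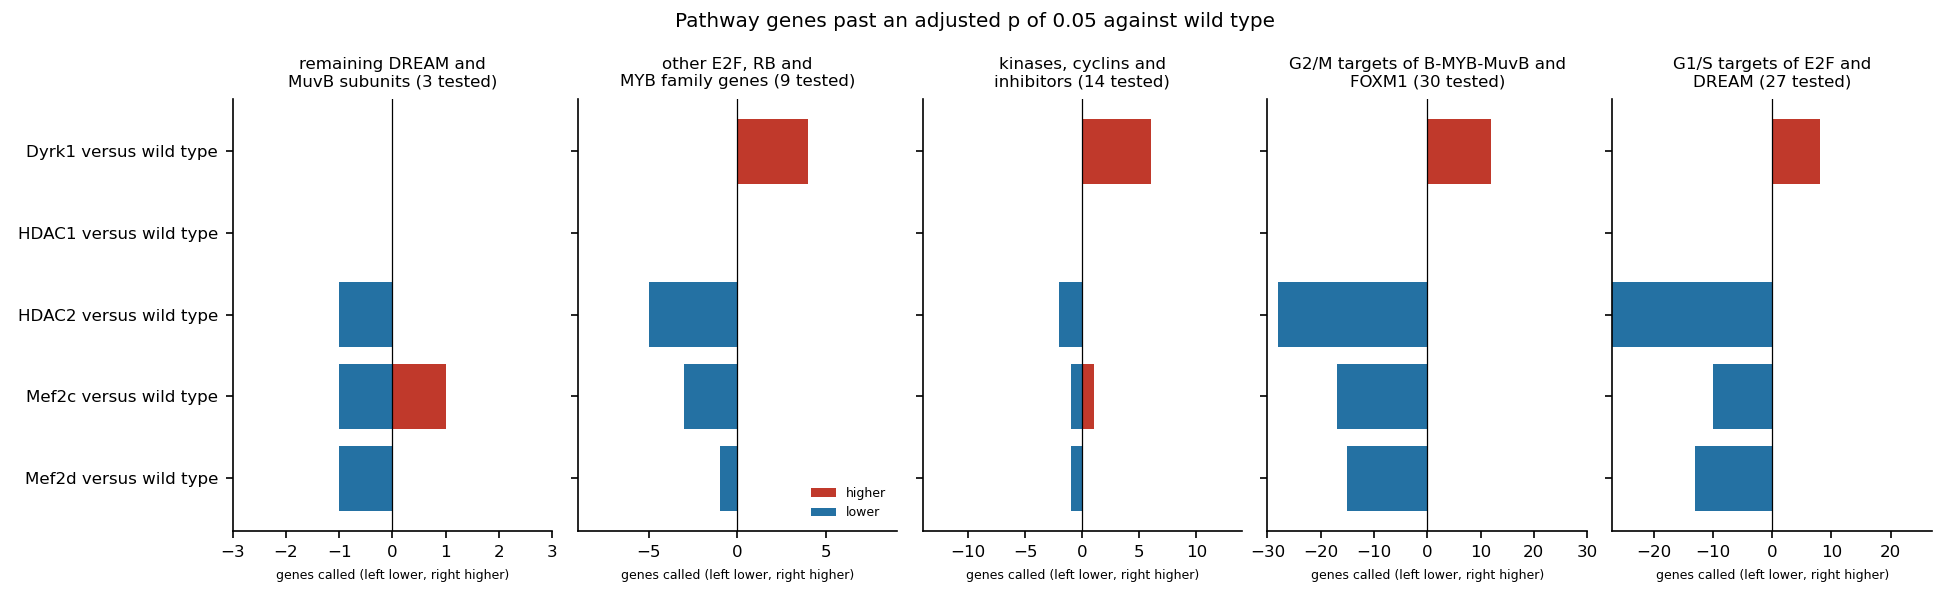
Number of genes of 5 pathway lists past an adjusted p of 0.05 against wild type (horizontal axes, lower to the left and higher to the right) in the 5 comparisons (vertical axis). G2/M targets were higher in Dyrk1 (12 of 30) and lower in HDAC2 (28 of 30), Mef2c (17) and Mef2d (15).

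Of the 3 remaining subunits, Rbbp4, the histone-binding MuvB subunit, fell by 0.31 in HDAC2 (limma adjusted p 0.00356), by 0.25 in Mef2c (0.0108) and by 0.25 in Mef2d (0.0099). E2f5, the second repressor E2F of DREAM, rose by 0.57 in Mef2c (adjusted p 0.033), and Tfdp2, which encodes DP2, passed in no comparison. Leaving out wild-type replicate 3 or Mef2c replicate 1 left 0 of the Mef2c calls, and the Mef2d call also ended without wild-type replicate 3. Of 9 other E2F, RB and MYB family genes, 4 rose in Dyrk1: the activator E2f2 from 25.5 ± 4.94 to 45.9 ± 4.09 FPKM (log2 0.84, adjusted p 0.000902), the repressors E2f7 (0.69) and E2f8 (0.85), and Mybl1 (0.68), the gene of A-MYB. In HDAC2 5 fell: E2f1 (-0.80), E2f8 (-0.68), Myb (-0.52), E2f2 (-0.49) and E2f3 (-0.29). Without wild-type replicate 1 or HDAC2 replicate 1, 3 passed, and without wild-type replicate 3, 2 passed. E2f2, E2f3 and Myb fell in Mef2c and E2f1 in Mef2d, and these counts were 0 without wild-type replicate 3 or without replicate 1 of the deletion group. Over all genes 17.3% passed in Dyrk1, 25.6% in HDAC2, 19.0% in Mef2c and 21.9% in Mef2d.

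Of 14 kinases, cyclins and inhibitors that act on these complexes, 6 rose in Dyrk1 and 0 fell, where 17.3% of all genes passed. Cdkn2c, which encodes the CDK4 and CDK6 inhibitor p18, went from 10.7 ± 2.09 to 22.5 ± 1.39 FPKM (log2 1.03, limma adjusted p 0.000679). Cdkn1a (p21) rose by 0.91, Dyrk1b by 0.68, the D cyclin gene Ccnd2 by 0.46, Dyrk1a by 0.25 and Cdkn1b (p27) by 0.18. Leaving out wild-type replicate 1 left 3 of these calls, as did RLE scaling. Cdkn2c and Cdk4 fell in HDAC2 by 0.51 and 0.34, and neither passed without wild-type replicate 3 or HDAC2 replicate 1. Ccnd3, another D cyclin gene, fell in Mef2c by 0.30 and in Mef2d by 0.26, and Dyrk1b rose in Mef2c by 0.30 (adjusted p 0.0385). This made 2 of 14 genes in HDAC2, 2 in Mef2c and 1 in Mef2d. Over all genes 25.6% passed in HDAC2, 19.0% in Mef2c, 21.9% in Mef2d and 12.5% in HDAC1. In HDAC1 none of these 14 genes, the 9 family genes or the 3 remaining subunits passed with limma on FPKM or on recovered reads, and 1 of each list had an unadjusted p under 0.05.

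The tested genes whose log2 levels followed 4 of the members most closely over the 18 libraries were found by Pearson's r, given as a description because the libraries share group differences. Mybl2 was followed by Tpx2 (0.991), Uhrf1 (0.991), Tacc3 (0.989), Ccna2 (0.987) and Lmnb1 (0.987). Tpx2 averaged 12.3 ± 4.20 FPKM in wild type, 17.3 ± 1.62 in Dyrk1 and 5.36 ± 0.410 in HDAC2, the same order as Mybl2. Foxm1 was followed by Prr11 (0.978), Hells, Ckap2 (both 0.968), Rad54l and Ndc80 (both 0.967). Mybl2 and Foxm1 had an r of 0.931 with each other. Rbl2 was followed by Rgs3 (0.963), Kif5c (0.962), Setbp1 (0.950), Atr (0.948) and Xrn1 (0.946). Rgs3 was 21.3 ± 1.22 FPKM in wild type, 35.0 ± 1.00 in Mef2c and 36.0 ± 1.5 in Mef2d. Lin52 was followed less closely, by Lamtor3 (0.883), Tmem129 (0.868), Stx12 (0.841), Uxt (0.834) and Cript (0.829).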

How the data were processed

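RNA of sorted Treg was measured in 18 libraries, grouped by their titles. The table deposited by the authors holds a value per gene and library that was treated as FPKM. No source names the unit, which was read from the values. Per the submitters' processing notes, STAR, HTSeq and mm10 were used, with versions and strand setting not given in the sources used here. For all 12223 tested genes (100.0%) a fitted length gave whole reads within 0.01, a share partly fixed by the fit. The depth, 15.92 to 24.09 M reads per library, was set first, from values that match a single read at the annotated gene length. Reads were then recovered from this depth and the fitted length, which equalled the annotated length for 1516 of the 12223 genes. Read counts of members cover counting error only.

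Of 35275 identifiers 34490 matched a symbol. The filter kept genes that reached 1 FPKM in 3 or more libraries. Their log2(FPKM + 1) values were fitted by limma 3.58.1 (R 4.3.3) in a single model of the 18 libraries with 6 group means, 12 residual degrees of freedom and a variance trend. Adjusted p-values are Benjamini-Hochberg values over all genes, two-sided, and group values are mean ± SD (n = 3). Replicates are described as independent and biological. The fit was tested on simulated data. Positions are from GENCODE M21 on mm10, and promoter windows are from RefSeq on GRCm38.p6.

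The members and lists were chosen with earlier results of these data known. All members were named, any gene of lists of up to 15 genes could be, and of longer lists up to 4 per comparison with the smallest p among those that passed, or up to 2 where none did. Also named were overlapping neighbours, targeted genes and the 5 genes most like Mybl2, Foxm1, Lin52 and Rbl2, without clone-like symbols and receptor or immunoglobulin segments. Alternatives were a pseudocount of 0.1, no filter, RLE scaling, fitting 2 groups only, leaving out libraries, removing length and GC trends, a replicate block and, added after seeing the data, voom on recovered reads.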

Additional observations from a re-analysis of the deposited data

How the results depend on the processing

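No value of the 10 genes that passed changed sign under any alternative. Over the 6 comparisons and all alternatives, 267 of 300 values that passed kept their side of the threshold and 33 lost it, and of 600 that did not pass 14 gained it and 35 changed sign. Of the 10 genes, Mef2c had 1 call with no filter, 4 with RLE scaling, 1 with only 2 groups fitted and 1 without the B cell rich libraries, in place of 2. HDAC1 had 0 in place of 1 with RLE scaling, with length and GC trends removed, and with both the replicate block and trend removal. Mef2d had 1 in place of 3 without the B cell rich libraries, and Dyrk1 had 1 in place of 4 with only 2 groups fitted. Over all genes, fitting only 2 groups gave 62 calls in Dyrk1 (2116 as reported), 1355 in Mef2c (2322) and 880 in Dyrk1 against HDAC2 (2122). Leaving out the B cell rich libraries gave 1307 in Mef2c and 1467 in Mef2d (2677). With a library left out, Dyrk1 had between 1186 and 2595 calls over all genes, HDAC1 between 421 and 1721, and HDAC2 between 1329 and 3284. Mef2c had between 1150 and 2428, Mef2d between 1079 and 2814, and Dyrk1 against HDAC2 between 1372 and 2203. Wild-type replicate 3 gave the lowest count in HDAC1, HDAC2, Mef2c and Mef2d, Dyrk1 replicate 3 in Dyrk1 and HDAC2 replicate 1 in Dyrk1 against HDAC2. Calls among the 10 genes ranged from 0 to 2 in HDAC1, 1 to 4 in Mef2c and 1 to 3 in Mef2d. The cause of these changes was not tested.

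Scaling moved the split of calls over all genes: 1359 higher and 757 lower in Dyrk1 became 1089 and 920 with RLE and 730 and 857 with trends removed. In HDAC1 1250 and 283 became 763 and 717, and 558 and 675. In HDAC2 1973 and 1150 became 1412 and 1628, and 1325 and 1586. In Mef2c 1581 and 741 became 1073 and 1103, and 1027 and 1071. In Mef2d 1705 and 972 became 1223 and 1346, and 1031 and 1128. Voom on recovered reads, added after seeing the data, gave 2136, 1528, 3222, 2295 and 2662 calls in these comparisons and the same counts among the 10 genes.

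Same-numbered libraries deviated from their group means with correlations of -0.45 to 0.46 (median -0.00), and 8 of 18 libraries were closest to their own number. With 3 libraries per group, these values cannot tell whether some same-numbered libraries share a batch. With the replicate block, calls over all genes were 1932 in Dyrk1, 1391 in HDAC1, 2867 in HDAC2, 2181 in Mef2c, 2485 in Mef2d and 1986 in Dyrk1 against HDAC2, and among the 10 genes 3 passed in Mef2c, where Mybl2 was added (limma adjusted p 0.0391). Lin52 had the lowest read counts of the 10 genes, and their part in its spread was not tested.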
